A study of Mus musculus with 6 samples.

Results

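The miR-148 and miR-152 family is a small group of microRNAs (miRNAs) made from 3 hairpins, mir-148a, mir-148b and mir-152. The members described here were the arms listed by name for these hairpins, mmu-miR-148a-3p, mmu-miR-148a-5p, mmu-miR-148b-3p and mmu-miR-152-3p, which were 4 of the 1966 mature miRNAs in the count table. The table held 6 arms of the 3 hairpins in all, and the other 2 were mmu-miR-148b-5p and mmu-miR-152-5p. Small RNA was sequenced from extracellular vesicles (EVs) of mouse colon explants (3 libraries) and of bone marrow-derived dendritic cells, or BMDCs (3 libraries). All 6 libraries came from the Rab27A fl/fl strain on a C57BL/6 background, in which the Rab27a gene carries loxP sites, and the study used adult mice of both sexes. The labels name no Cre allele for them. The BMDCs were grown with GM-CSF for 7 days in complete RPMI, and the colon explants were incubated for 16 hours. By the study's methods the explant medium was RPMI whose serum had been depleted of exosomes, a kind of EV. No such depletion is stated there for the BMDC medium. By the labels, an iodixanol density gradient was used for the colon vesicles only, with fraction 2 sequenced, whereas the study's own text also describes a gradient for BMDC vesicles. Source and culture medium cannot be told apart, nor can source and gradient if the labels are right. A colon explant holds many cell types and a BMDC culture is not a pure population.

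A miRNA guides a silencing complex to messenger RNAs that pair with its seed, the bases from position 2 to position 8 counted from its 5′ end. miRNAs with the same seed can act on overlapping sets of targets, so their counts may be read together as well as singly. In dendritic cells, the cells that take up antigen and present it to T cells, this family is known to be raised on activation and to restrain cytokine production and antigen presentation, in part through Camk2a, a subunit of a calcium-dependent kinase. EVs are membrane particles that carry miRNAs out of the cell that made them.

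The mature 3p sequences (RefSeq, GRCm38.p6) are shown first because they are what makes these arms a family, with the seed in capitals.

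mmu-miR-148a-3p: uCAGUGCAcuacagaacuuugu

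mmu-miR-148b-3p: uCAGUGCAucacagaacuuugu

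mmu-miR-152-3p: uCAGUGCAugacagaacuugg

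All 3 arms carried the same seed. Counted from the 5′ end, mmu-miR-148a-3p differed from mmu-miR-148b-3p at 2 of 22 positions, C9U and U10C, where the first letter belongs to mmu-miR-148a-3p. It differed from mmu-miR-152-3p at 3 of 21 positions, C9U, U10G and U20G, and was 1 base longer. Between mmu-miR-148b-3p and mmu-miR-152-3p there were 2 differences in 21 positions, C10G and U20G. The nearest mature sequence outside the family, among 1673 searched, had at least 7 mismatches to any of these arms. The counts of all 3 arms held fractions in all 6 libraries, as happens when a read is divided among several annotated places, and how reads that match more than one arm were divided is not given in the sources used here.

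The opposite arms of the same hairpins are shown because their seeds differ from the 3p seed and partly from each other.

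mmu-miR-148a-5p: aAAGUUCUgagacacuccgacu

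mmu-miR-148b-5p: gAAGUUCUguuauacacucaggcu

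mmu-miR-152-5p: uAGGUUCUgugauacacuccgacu

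The first 2 of these shared a seed, AAGUUCU, and that of mmu-miR-152-5p was AGGUUCU.

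The 3 hairpins lie on different chromosomes (GRCm38). Mir148a (chr6:51269812-51269910, minus strand) overlapped no other annotated gene, and its nearest neighbours were the long noncoding RNA Gm32479, 13621 bases away, and the pseudogene Gm44402, 302306 bases away. Its mature 3p arm lies at chr6:51269829-51269850 and its 5p arm at chr6:51269867-51269888. Mir148b (chr15:103285125-103285221, plus strand, 3p arm at chr15:103285185-103285206) lies in an intron of Copz1, and Mir152 (chr11:96850393-96850465, plus strand, 3p arm at chr11:96850439-96850459) lies in an intron of Copz2. Copz1 and Copz2 encode the zeta subunits of coatomer, a coat of transport vesicles, and both run on the same strand as the hairpin they hold. No annotated exon overlapped either hairpin.

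The libraries held between 173358 and 645303 counts from colon EVs and between 83997 and 178454 from BMDC EVs, so 3 counts were worth 4.65 to 17.3 and 16.8 to 35.7 CPM (counts per 1000000 counts of the library) respectively. Replicates of a source correlated across miRNAs at r of 0.955 to 0.989 in log CPM, and no pair of libraries matched within sampling noise. The sources differed in most of what was measured. Of 220 miRNAs with enough counts to test, 169 (76.8%) differed between sources at an adjusted p under 0.05 (edgeR quasi-likelihood test, Benjamini-Hochberg), 80 of them (36.4%) lower in BMDC EVs, and for 180 (81.8%) the 3 libraries of one source did not overlap the 3 of the other. Marker miRNAs matched the labelled sources. In BMDC EVs 9 of 9 epithelial markers were lower (beside 36.4% of all tested miRNAs), with log2 fold changes from -6.41 to -5.48. There 6 of 6 haematopoietic markers were higher (beside 40.5%), from 3.31 to 5.07. Some of the haematopoietic markers, miR-155-5p among them, were singled out in the study from these same libraries, so their direction is not independent evidence. The labels do not say whether replicates came from separate animals, so p-values measure only the spread between these libraries, which may be technical.

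mmu-miR-148a-3p was the most abundant member in both sources and the one that differed between them. In colon EVs its level, in CPM scaled by trimmed mean of M-values (TMM) factors, was 40410, 27729 and 29091 in replicates 1, 2 and 3. In BMDC EVs it was 3289, 3555 and 4284. The lowest colon library lay far above the highest BMDC library, and 81.8% of all tested miRNAs likewise did not overlap between sources, in either direction. Colon EV replicate 1 stood above colon EV replicates 2 and 3. The means were 32410 ± 6962 and 3709 ± 515 CPM (SD, n = 3 libraries each), an 8.73-fold higher level in colon EVs (95% interval 6.11 to 12.5). The log2 fold change of BMDC over colon EVs was -3.13 (SE 0.245, edgeR adjusted p = 1.49e-09). This was the 40th lowest of the 220 log2 fold changes tested, in a comparison where 36.4% of miRNAs were called in the same direction. mmu-miR-148a-3p was the 10th most abundant tested miRNA in colon EVs and the 31st in BMDC EVs. In such bulk material a lower number of vesicles from a cell type and less of the miRNA per vesicle cannot be told apart.

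mmu-miR-148b-3p was the second most abundant member, and its sources overlapped. Its level was 2081, 1575 and 1463 CPM in the colon EV libraries and 1334, 1562 and 1475 CPM in the BMDC EV libraries. Colon EV replicate 1 stood above the other 5 libraries. The means were 1706 ± 329 and 1457 ± 115 CPM (SD, n = 3 each), and the log2 fold change of -0.23 (SE 0.226) did not pass the test (edgeR adjusted p = 0.341). Its 95% interval, -0.71 to 0.24, left room for a level up to 1.64-fold higher in colon EVs but not for the fold of mmu-miR-148a-3p.

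mmu-miR-152-3p was the least abundant of the 3 seed-sharing arms. Its level was 306, 278 and 264 CPM in the colon EV libraries and 207, 401 and 181 CPM in the BMDC EV libraries. BMDC EV replicate 2 was the highest of the 6 libraries and the other 2 BMDC EV libraries were the lowest. These values rested on 32 to 40 counts per BMDC EV library, and the 95% Poisson interval of replicate 2 (286 to 545 CPM) did not meet that of replicate 3 (127 to 251 CPM). Intervals of this kind cover counting error only. The means were 283 ± 21.4 and 263 ± 120 CPM (SD, n = 3 each), and the log2 fold change of -0.15 (SE 0.384, interval -0.95 to 0.66) did not pass the test (edgeR adjusted p = 0.742).

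mmu-miR-148a-5p was at or under the limit of detection. It had 3 counts in colon EV replicate 1 and 0 in the other 5 libraries, which was under the minimum for testing, and no fold was taken.

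**Figure D1:**
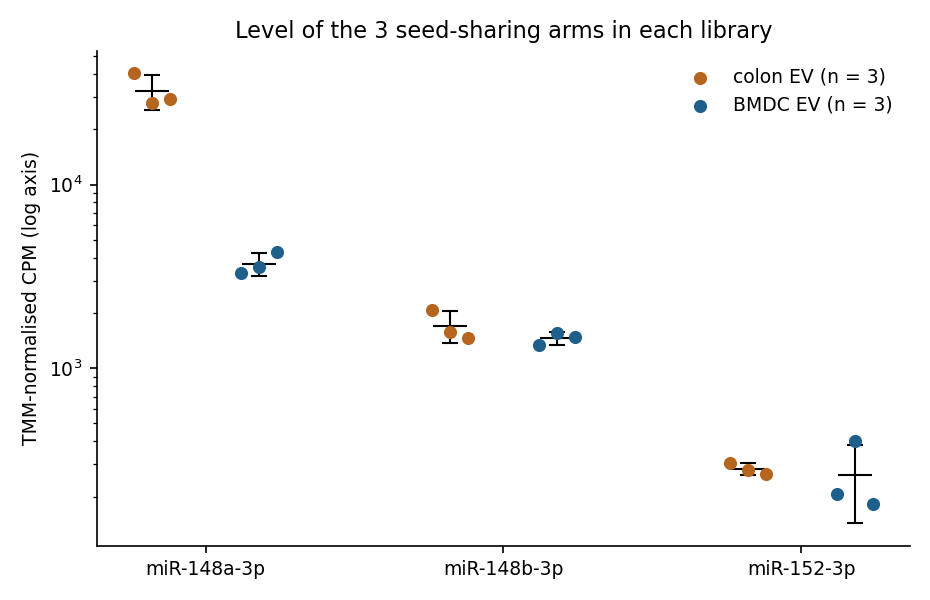
Level of mmu-miR-148a-3p, mmu-miR-148b-3p and mmu-miR-152-3p in each library in TMM-normalised CPM on a log axis, with 3 colon EV and 3 BMDC EV libraries as points and the mean and SD as black bars. The colon EV points of mmu-miR-148a-3p run from 27729 to 40410 CPM and its BMDC EV points from 3289 to 4284 CPM, while the points of the other 2 arms overlap between sources.

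The order of the levels was the same in all 6 libraries, with mmu-miR-148a-3p above mmu-miR-148b-3p and mmu-miR-152-3p last. No neighbours in that order overlapped within a source. In BMDC EVs the lowest mmu-miR-148a-3p value, 3289 CPM, stood above the highest mmu-miR-148b-3p value, 1562 CPM, and the lowest mmu-miR-148b-3p value, 1334 CPM, stood above the highest mmu-miR-152-3p value, 401 CPM. The distance between the first 2 was much shorter in BMDC EVs than in colon EVs. In colon EVs the family had 1 member far above the rest, and in BMDC EVs mmu-miR-148b-3p came within 3-fold of it.

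The listed members took a larger share of the colon EV libraries. They made up 3.34%, 2.56% and 2.83% of all counts in colon EVs and 0.588%, 0.657% and 0.661% in BMDC EVs. The means were 2.91% ± 0.396 and 0.635% ± 0.0408 (SD, n = 3 each), and the sources did not overlap (two-sided exact permutation test, p = 0.1, the smallest that 3 against 3 libraries can give). With TMM scaling the summed level of the 3 seed-sharing arms was 34399 ± 7299 CPM in colon EVs and 5429 ± 560 CPM in BMDC EVs, 6.34-fold apart. mmu-miR-148a-3p alone accounted for 99.1% of that difference. With library size alone the log2 fold changes of mmu-miR-148b-3p (0.24) and mmu-miR-152-3p (0.33) were positive, so both figures depend on the scaling.

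The composition of the family was compared within each library, where the scaling between libraries has no part. mmu-miR-148a-3p made up 94.4%, 93.7% and 94.4% of the counts of the 3 arms in colon EVs and 68.1%, 64.4% and 72.1% in BMDC EVs. mmu-miR-148b-3p made up 4.87%, 5.33% and 4.74% in colon EVs and 27.7%, 28.3% and 24.9% in BMDC EVs. mmu-miR-152-3p made up 0.716%, 0.932% and 0.862% in colon EVs and 4.22%, 7.34% and 3.02% in BMDC EVs. Every BMDC EV library thus held a smaller share of mmu-miR-148a-3p and larger shares of both other arms than any colon EV library. The difference in mean share was -26.0 percentage points for mmu-miR-148a-3p (94.2 ± 0.385 against 68.2 ± 3.87), 22.0 for mmu-miR-148b-3p (4.98 ± 0.309 against 26.9 ± 1.82) and 4.02 for mmu-miR-152-3p (0.837 ± 0.111 against 4.86 ± 2.23). Each had an exact permutation p of 0.1, the smallest possible, and 0.1 after adjustment over the 3 shares. The shares rested on 4908 to 21549 family counts per colon EV library and 551 to 1180 per BMDC EV library. In BMDC EV replicate 2, the shallowest, the 95% Wilson interval of the mmu-miR-148a-3p share was 60.3% to 68.3%, far below every colon EV value.

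**Figure D2:**
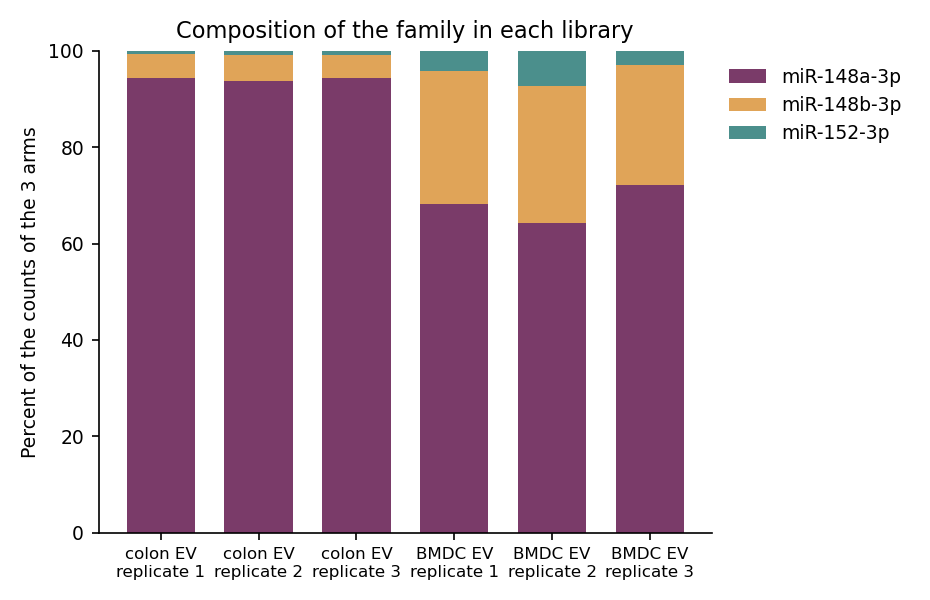
Percent of the summed counts of the 3 seed-sharing arms held by each arm, with 1 stacked bar per library. The mmu-miR-148a-3p part covers 93.7% to 94.4% of the colon EV bars and 64.4% to 72.1% of the BMDC EV bars, and mmu-miR-148b-3p fills most of the rest.

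Ratios between members set mmu-miR-148a-3p apart from the other 2 arms. There were 19.4, 17.6 and 19.9 counts of mmu-miR-148a-3p for each count of mmu-miR-148b-3p in colon EVs, against 2.46, 2.27 and 2.90 in BMDC EVs. For each count of mmu-miR-152-3p there were 132, 101 and 109 of mmu-miR-148a-3p in colon EVs, against 16.1, 8.76 and 23.9 in BMDC EVs. The sources did not overlap in either ratio. Relative to mmu-miR-148a-3p, mmu-miR-148b-3p was 7.48-fold and mmu-miR-152-3p 7.59-fold higher in BMDC EVs (log2 2.90 and 2.92, exact permutation p = 0.1 each, 0.133 adjusted over 4 ratios). The ratio of mmu-miR-148b-3p to mmu-miR-152-3p was 6.80, 5.71 and 5.50 in colon EVs and 6.55, 3.85 and 8.25 in BMDC EVs. Here the sources overlapped, and the log2 ratio of mmu-miR-152-3p to mmu-miR-148b-3p differed by 0.02 (exact permutation p = 1). That value turned to -0.08 without colon EV replicate 1 and to -0.29 without BMDC EV replicate 2, the library with the high mmu-miR-152-3p count.

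A fit across all seed families placed these ratios against those of other families. Of the 220 tested miRNAs 195 had a seed from RefSeq, so a family may lack tested members without one. Of the miRNAs with a seed, 63 fell into 23 families of at least 2 members with the same bases 2 to 8. For 21 of these 63 (33.3%) the change relative to the family as a whole had an adjusted p under 0.05 (edgeR diffSpliceDGE). Changes from this fit are natural logs, not log2. mmu-miR-148b-3p rose by 1.68 on the natural log scale relative to its family (edgeR adjusted p = 2.17e-09) and mmu-miR-152-3p by 1.73 (edgeR adjusted p = 7.33e-08). These were the 5th and 4th largest relative changes of the 63. mmu-miR-148a-3p, which supplied most of the family counts and so sets the level that the others are compared with, had a relative change of -0.32 (edgeR adjusted p = 0.160). The range from the lowest to the highest member was 2.05 natural log units and ranked 6th of the 23 families. It came after those led by miR-125a-5p (4.77), let-7b-5p (3.34), miR-16-5p (2.35), miR-30a-3p (2.30) and miR-10a-5p (2.13), in the same units. A shift between members of a seed family was therefore not particular to this one.

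**Figure D3:**
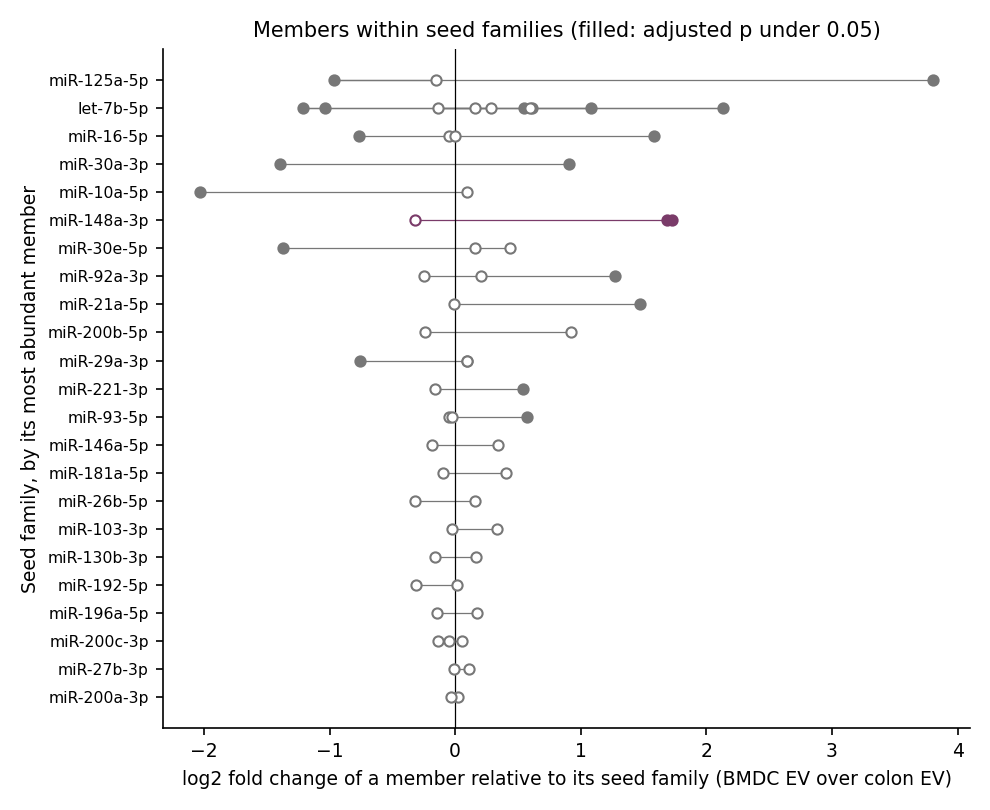
Natural log of the fold change of each tested miRNA relative to its seed family, BMDC EV over colon EV. The 23 families are named by their most abundant member and ordered by range. The axis title says log2, but the values drawn are natural logs. Filled points passed an adjusted p of 0.05. In the purple line, the family of miR-148a-3p, 2 filled points near 1.7 are mmu-miR-148b-3p and mmu-miR-152-3p, and the open point at -0.32 is mmu-miR-148a-3p.

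The absolute fold changes of the 2 less abundant arms depended on how libraries were scaled. The median log2 fold change of all tested miRNAs was 0.19 with TMM, 0.06 with DESeq2 size factors, 0.39 with upper-quartile scaling and 0.64 with library size alone. Relative to that median, the change of mmu-miR-148a-3p was -3.31 with TMM and -3.30 with library size alone, that of mmu-miR-148b-3p was -0.42 and -0.40, and that of mmu-miR-152-3p was -0.33 and -0.31. With library size alone the log2 fold changes of mmu-miR-148b-3p (0.24) and mmu-miR-152-3p (0.33) were positive, and neither passed the test. The fold change of mmu-miR-148b-3p was also positive without any 1 of the BMDC EV libraries, at 0.22 without replicate 1, 0.18 without replicate 2 and 0.19 without replicate 3. That of mmu-miR-152-3p was 0.38 without BMDC EV replicate 1 and 0.50 without BMDC EV replicate 3. Without colon EV replicate 1, 2 or 3, mmu-miR-148b-3p stayed negative, at -0.36, -0.56 and -0.60. Each fit with a library left out repeated the count filter and the TMM scaling, so the scaling changed along with the libraries. With no minimum count, mmu-miR-148b-3p was at -0.77 and passed the test (edgeR adjusted p = 0.0414), in a fit whose median over all miRNAs was -0.30. No direction was therefore taken for either arm. mmu-miR-148a-3p was lower in BMDC EVs and past the threshold in all 16 alternatives, with log2 fold changes from -3.66 to -2.63.

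**Figure D4:**
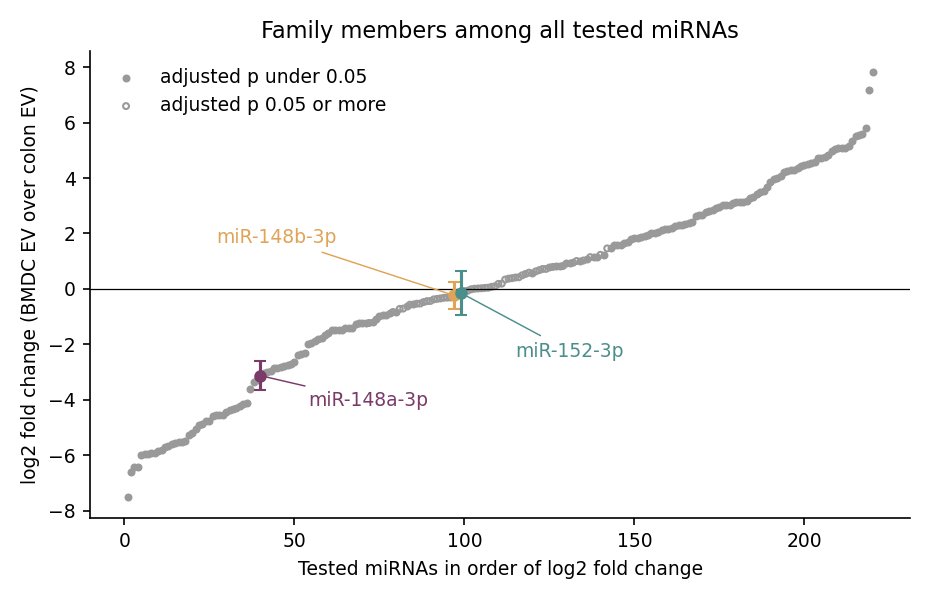
Log2 fold change, BMDC EV over colon EV, of the 220 tested miRNAs in order, with 3 family arms in colour and their 95% intervals as bars. mmu-miR-148a-3p at -3.13 is the 40th lowest, and mmu-miR-148b-3p and mmu-miR-152-3p lie near 0 with intervals that include 0.

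**Figure D5:**
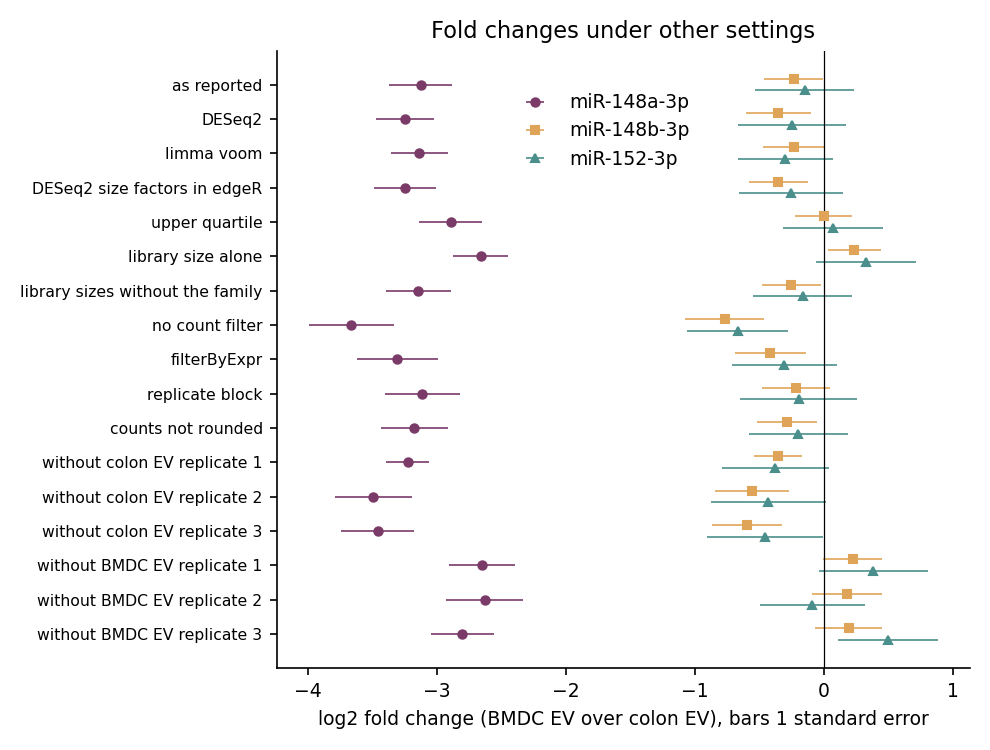
Log2 fold change of the 3 arms as reported and under 16 other settings, with bars of 1 standard error. mmu-miR-148a-3p stays between -3.66 and -2.63, while mmu-miR-148b-3p and mmu-miR-152-3p lie on both sides of 0.

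The 5p arms were minor products of their hairpins in these libraries. mmu-miR-148a-5p made up 3 of 30564 counts from both arms of mir-148a in colon EVs (0.00982%) and 0 of 1714 in BMDC EVs, which allows a share of up to 0.175%. A share like that of colon EVs was not detectable at the depth of the BMDC EV libraries. Of the arms outside the list, mmu-miR-148b-5p was the best covered, with 23, 7 and 3 counts in colon EVs and 3, 2.5 and 16 in BMDC EVs. With counts rounded to whole numbers (2.5 to 2), it made up 2.15%, 2.16% and 1.27% of mir-148b counts in colon EVs and 1.44%, 1.27% and 5.18% in BMDC EVs. BMDC EV replicate 3 was the highest (95% Wilson interval 3.21% to 8.24%) and the other 2 BMDC EV libraries lay within or near the colon range. Where 10 counts in 2 libraries sufficed for testing, mmu-miR-148b-5p changed by 0.35 on the natural log scale relative to its hairpin (edgeR diffSpliceDGE, adjusted p = 0.998). mmu-miR-152-5p had 0, 0 and 1 counts in colon EVs and 1, 5 and 3 in BMDC EVs. That was 1 of 253 mir-152 counts (0.395%) and 9 of 117 (7.69%), too few to test. None of the 38 hairpins with both arms tested belonged to this family.

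The seed letters CAGUGCA were searched for in 1679 mature mouse sequences of RefSeq, on the given strand. They stood at bases 2 to 8 in 3 of them, the family itself, so no other mature sequence searched shared the seed. In 7 others, among them miR-130a-3p, miR-130b-3p and miR-301a-3p, the same letters began 1 base earlier, at the first base. Of the counts of miRNAs with these letters at the first or second base, the family supplied 99.3%, 99.3% and 99.0% in colon EVs and 93.2%, 93.0% and 90.1% in BMDC EVs. mmu-miR-148a-3p alone supplied 93.7%, 93.1% and 93.4%, against 63.5%, 59.8% and 65.0%. A shared run of letters describes the sequences and does not show a shared target.

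The tested miRNAs outside the family whose profile over the 6 libraries was nearest to each member were found by the root mean square difference of centred log2 CPM, over 217 candidates. Nearest to mmu-miR-148a-3p were miR-378a-5p (0.281), let-7c-5p (0.296) and miR-194-1-3p (0.303). let-7c-5p fell from 132770 to 16950 CPM (log2 fold change -2.97, edgeR adjusted p = 2.16e-09), while miR-194-1-3p had 67.33, 20 and 10 counts in colon EVs and 0 in every BMDC EV library, so that its distance rests on the count added before taking logs. Nearest to mmu-miR-148b-3p were miR-23a-3p (0.0883), let-7g-5p (0.119) and miR-29a-3p (0.159). miR-23a-3p was measured at 5208 CPM in colon EVs and 4211 CPM in BMDC EVs and did not pass the test (edgeR adjusted p = 0.187). Nearest to mmu-miR-152-3p were miR-147-3p (0.155), miR-652-3p (0.308) and miR-151-5p (0.313). Within the family the distance was 0.317 between mmu-miR-148b-3p and mmu-miR-152-3p, 1.45 between mmu-miR-148a-3p and mmu-miR-148b-3p and 1.52 between mmu-miR-148a-3p and mmu-miR-152-3p. Profiles over these libraries hold mainly the contrast between 2 sources, and likeness is given as a description.

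Other miRNAs known for roles in dendritic cells were listed to place the family among them. All 15 were tested, 10 were higher in BMDC EVs (beside 40.5% of all tested miRNAs), 3 were lower (beside 36.4%), and miR-22-3p and miR-27a-3p did not pass. The median log2 fold change was 2.02, beside 0.19 over all tested miRNAs. Several, miR-155-5p and miR-146a-5p among them, were singled out in the study from these same libraries, so the list is not independent evidence of its direction. miR-155-5p, which promotes dendritic cell activation, was at 3255 ± 1408 CPM in colon EVs and 108551 ± 2729 CPM in BMDC EVs (log2 fold change 5.07, SE 0.340, edgeR adjusted p = 1.78e-10). let-7i-5p, a let-7 family member, rose from 21513 ± 2459 to 77506 ± 1624 CPM (1.85, SE 0.224, edgeR adjusted p = 5.90e-07). miR-21a-5p, abundant in many tissues, was 9897 ± 2944 CPM in colon EVs and 6792 ± 420 CPM in BMDC EVs (-0.54, SE 0.230, edgeR adjusted p = 0.0394). By mean level mmu-miR-148a-3p stood above all 15 in colon EVs, at 32410 CPM. In BMDC EVs, at 3709 CPM, it stood below 8 of them and above 7.

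Markers of other cell types moved with the same contrast. The haematopoietic and endothelial lists shared members with the dendritic cell list, such as miR-155-5p and miR-126a-3p, so these lists are not separate evidence. The summed level of the 9 epithelial markers, the miR-200 family, miR-192-5p, miR-194-5p, miR-215-5p and miR-375-3p, ranged from 248132 to 382729 CPM in colon EVs and from 3393 to 6699 CPM in BMDC EVs, with none at 0. That of the 6 haematopoietic markers ranged from 5867 to 11780 CPM in colon EVs and from 241985 to 277036 CPM in BMDC EVs. Of 6 muscle and mesenchyme markers 2 were tested, and both were lower in BMDC EVs (beside 36.4% of all tested miRNAs). The sums over all 6 were 1463 to 2653 against 64.7 to 210 CPM. Both endothelial markers were lower (beside the same 36.4%), with sums of 785 to 1317 against 194 to 541 CPM. The 2 red cell markers were not tested, at sums of 0 to 56.5 and 10.1 to 30.0 CPM. mmu-miR-148a-3p had 0.106, 0.106 and 0.117 CPM for each CPM of the epithelial sum in colon EVs, and 0.605, 0.531 and 1.26 in BMDC EVs. Its log2 fold change of -3.13 was smaller in size than that of each of the 9 epithelial markers, a difference that was not tested in itself, and the part of epithelial vesicles in its level was not tested.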

How the data were processed

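Vesicle small RNA from 3 colon explant and 3 BMDC EV preparations was made into libraries with a Qiagen QIAseq kit for miRNAs. For each mature miRNA the authors deposited an estimated count per library, often not whole and not normalized. The submitters' processing notes name STAR 2.7.6a, featureCounts 1.6.3, DESeq2 1.30.1 and the builds GRCm38 and mm10. How multiply matching reads were divided and whether molecular identifiers were used is not given in the sources used here. If reads were not collapsed to molecules, counts overstate the precision, and division of reads among near-identical arms would blur their differences.

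Groups were taken from the sample labels. Counts were rounded, a miRNA was kept if 3 or more libraries had 10 or more counts of it, and sources were compared with edgeR 4.0.16 (TMM, quasi-likelihood test, Benjamini-Hochberg adjustment over all tested miRNAs, threshold 0.05) in R 4.3.3. Relative changes within seed families and hairpins used edgeR diffSpliceDGE and are given as natural logs. These tests were tried on simulated data first. The simulation changed a smaller part of the miRNAs than differed here, equally in both directions. It therefore cannot show that the scaling was right for these libraries. Family shares, composition and ratios used unrounded counts, while arm shares and all counting intervals used rounded ones. Log2 ratios had 0.5 added to each count. Differences in shares and ratios were tested with two-sided exact permutation tests (scipy 1.17.1). CPM values are TMM-scaled, except the CPM worth of 3 counts, which used the library total alone. The ratio of mmu-miR-148a-5p to its 3p arm, the fourth in its family of tests, was set by the added count and is not printed. Alternatives used DESeq2 1.42.0, limma 3.58.1, other scalings, filters and left-out libraries.

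Named miRNAs were the listed members, other arms of their hairpins, the 3 nearest profiles to each 3p arm (prior count 2) and, of the list of dendritic cell miRNAs, the 2 with the highest mean in each source. The families ranked above this one by range, and the miRNAs with the seed letters at the first base, were named after their values were seen. Members and lists were chosen with earlier results of these data known. Sequences were found in RefSeq for 1675 of the 1966 names.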

Additional observations from a re-analysis of the deposited data

How the results depend on the processing

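For the family, 13 results gave 128 values under alternatives, of which 118 kept their direction and 10 reversed. Of the 72 with an adjusted p from edgeR, DESeq2 or limma, 1 crossed the threshold. The other 56 were shares and ratios, whose exact permutation p could not fall below 0.1. The log2 fold change of miR-152-3p became 0.072 with upper-quartile scaling and 0.33 with library size alone, and ranged from -0.46 to 0.50 when 1 library was left out. That of miR-148b-3p became 0.24 with library size alone and -0.77 with no count minimum, and ranged from -0.60 to 0.22 when 1 library was left out (positive without each BMDC EV library, at 0.22, 0.18 and 0.19). The log2 ratio of miR-152-3p to miR-148b-3p ranged from -0.29 to 0.26 when 1 library was left out. The difference in family share was -2.90 percentage points of TMM-scaled library size. The cause of these changes was not tested. The number of arms called in the hairpin fit, 5 of the arms of 38 hairpins, was 8 with 10 counts in 2 libraries and 2 to 4 when 1 library was left out. The relative changes within the seed family, as natural logs, stayed at 1.66 to 1.72 for miR-148b-3p and 1.47 to 1.93 for miR-152-3p.

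Replicate numbers did not pair the libraries (correlations of deviations -0.145, -0.0596 and -0.133), and with them as a replicate block miR-148a-3p was at -3.11, miR-148b-3p at -0.22 and miR-152-3p at -0.19, with 164 miRNAs called. The block changed no call on the family.

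With 3 libraries a source no exact permutation test could pass 0.05. miR-152-3p and the 5p arms were limited by depth in BMDC EVs. Without 1 library 133 to 150 miRNAs were called, and those fits tested only 187 to 195. Without a count minimum 231 of 771 were called.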
